A study of Mus musculus with 36 samples.

Results

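The receptors, kinases and feedback genes of IL-6 family signalling were followed through 36 mouse lung tumours. They are 10 genes named by symbol, found by their Ensembl IDs among the 49585 gene IDs of a raw count table. Osmr, Il6st, Il6ra and Lifr encode receptor chains, Jak1 and Jak2 kinases, Stat3 the transcription factor, and Socs3, Bcl3 and Pim1 products that STAT3 is known to induce. All 10 were found, and all 10 were among the 20009 genes that passed the filter on low counts. The genes were chosen by values of this table, since they were proposed after Socs3 and Osmr had been seen to be higher with the Setd2 guide in Variant 3 tumours. For that comparison, and for the average over variants that contains it, the members' values are therefore a description without a test.

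The tumours were driven by EML4-ALK, a fusion oncogene that places the ALK kinase under the control of an EML4 segment, in its variant 1 or its variant 3 form. They received either sgNeo, a control guide that leaves Setd2 intact, or sgSetd2, a guide against Setd2, whose product writes the trimethyl mark on lysine 36 of histone H3. RNA came from the EGFP-positive, neoplastic cells sorted from each tumour, so that only cells carrying the label were meant to be measured. The 4 groups (Variant 1 sgNeo, Variant 1 sgSetd2, Variant 3 sgNeo and Variant 3 sgSetd2) held 9 tumours each, and the 9 titles of a group carried 3 codes with 3 tumours each. The strain, age and sex of the mice, the time of collection, and the way in which fusion, guide and EGFP were delivered are not stated in the labels. What a code stands for is also not given, so the 3 tumours of a code were added together and n = 3 codes per group. The p-values measure the spread between such codes, which may be technical.

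Ligands of the IL-6 family bind a receptor chain of their own and then recruit gp130, the shared signalling chain encoded by Il6st. JAK kinases bound to the chains phosphorylate STAT3, which enters the nucleus and switches on, among others, Socs3, whose product blocks the receptor complex and so closes a negative feedback loop. In lung epithelium this pathway is known for its part in the acute-phase response, in injury repair and in tumour growth.

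Sequencing depth lay between 17.9 M and 137.2 M counts a tumour (M, mega), with a median of 40.7 M. Values below are CPM, counts scaled to a common library total after TMM normalisation, given per tumour or per code, and a gene is called where its Benjamini-Hochberg adjusted p over all 20009 genes is below 0.05 in edgeR's quasi-likelihood test. Setd2 itself was at 67.7, 37.4, 54.6 and 45.7 CPM on average in the 4 groups, in the order given above. Its log2 fold change with sgSetd2 was -0.86 in Variant 1 (edgeR adjusted p = 0.0825) and -0.26 in Variant 3 (adjusted p = 0.647), neither of them called, and reads over an edited exon still count. The epithelial and alveolar type 2 cell markers summed to between 30946 and 207354 CPM per tumour. The 12 macrophage markers summed to between 4.32 and 40.5 CPM and the 8 lymphocyte markers to at most 1.32 CPM, with Nkg7 at 0 in every library. Fibroblast markers reached 406 CPM in tumour 1 of code CE467. In bulk RNA, fewer cells of a type and less RNA per cell cannot be told apart.

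Per kilobase of exon, the feedback gene Socs3 was the most abundant of the 10 transcripts. Averaged over 36 tumours it stood at 127 CPM per kb, followed by Stat3 at 35.7, Jak1 at 18.6, Bcl3 at 13.5, Osmr at 12, Jak2 at 11.2, Il6st at 6.20, Lifr at 3.89, Pim1 at 2.15 and Il6ra at 0.380. Socs3 lay above Stat3, and Stat3 above Jak1, in 36 of 36 tumours. Jak2 lay above Il6st in 35. The middle of the order was not settled: Bcl3 was above Osmr in 21 tumours, and Osmr above Jak2 in 17. Among the receptor chains, Osmr was per kb the most abundant on average, above the shared chain Il6st, while Il6ra was by far the scarcest.

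Socs3 encodes the suppressor of cytokine signalling that binds gp130 and JAK and stops the signal. The gene lies on chromosome 11 (GRCm38, GENCODE M21, 117966079 to 117970047, minus strand). Its promoter window is shown because Socs3 was the only one of the 10 genes whose RefSeq promoter windows (250 bases before to 50 after the start site, GRCm38.p6) held the STAT-type motif TTCNNNGAA, which reads the same on both strands. The stretch below is chr11:117969452-117969616, read 5′ to 3′ on the minus strand. It lies upstream of the start of the main coding transcript, ends before the nearest annotated exon, and is intronic only to a longer noncoding GENCODE transcript of the gene. The capitals mark the fixed letters of the motif in this stretch, where it begins 154 bases before the RefSeq start site. The rest of the 300-base window is not printed, and whether it holds further matches is not reported here.

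Socs3: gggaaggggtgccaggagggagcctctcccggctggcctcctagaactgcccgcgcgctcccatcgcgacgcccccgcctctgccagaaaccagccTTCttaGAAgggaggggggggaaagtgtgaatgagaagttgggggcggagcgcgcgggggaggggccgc

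The motif stood in 1 of the 12 windows of the 10 genes, or 8.33%, and in 2726 of all 32851 windows, or 8.30%. A match describes letters in a window and is no evidence of binding.

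With the control guide in Variant 1, Socs3 was at 283, 310 and 299 CPM in the 3 codes, while the 9 tumours behind them ran from 94.2 to 597 CPM with a median of 349. With sgSetd2 in Variant 1 the codes were at 480, 468 and 487 CPM, and the tumours ran from 381 to 652 with a median of 466. All 3 sgSetd2 codes lay above all 3 sgNeo codes, but single tumours overlapped. Within code CE467 alone, the tumours spanned nearly the whole range, at 94.2, 383 and 597 CPM. The means were 297 ± 13.6 and 478 ± 9.26 CPM (SD, n = 3 codes), a log2 fold change of 0.69 (SE 0.11, 95% interval 0.44 to 0.93, edgeR adjusted p = 0.0195). The code sums were much closer together than the tumours: 2.27% of the Socs3 variance lay between codes of a group and 39.0% within codes. The SE and p rest on those sums. On single tumours, limma voom gave 0.63 (adjusted p = 0.120).

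In Variant 3, Socs3 was at 201, 228 and 217 CPM in the sgNeo codes and at 401, 480 and 488 in the sgSetd2 codes. The sgNeo tumours ran from 166 to 266 CPM (median 220) and the sgSetd2 tumours from 369 to 560 (median 423). Here every sgSetd2 tumour was above every sgNeo tumour. The means were 215 ± 13.5 and 456 ± 48.1 CPM, and the log2 fold change was 1.09 (SE 0.11).

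Osmr encodes the oncostatin M receptor, which pairs with gp130 to bind oncostatin M. It lies on chromosome 15 (6813577 to 6874969, minus strand). In Variant 1 its sgNeo codes were at 113, 101 and 92.5 CPM, with tumours from 45.0 to 166 (median 120), and its sgSetd2 codes at 175, 220 and 221 CPM, with tumours from 129 to 320 (median 217). The codes of the 2 guides did not overlap, and the tumours did. The means of 102 ± 10.2 and 205 ± 26.1 CPM gave a log2 fold change of 1.01 (SE 0.19, 95% interval 0.59 to 1.42, edgeR adjusted p = 0.0307).

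In Variant 3 the Osmr codes were at 56.7, 91.0 and 82.6 CPM with sgNeo and at 240, 175 and 182 CPM with sgSetd2. The tumours ran from 20.1 to 129 CPM (median 75.9) against 153 to 268 CPM (median 189). As for Socs3, the 9 sgSetd2 tumours were all above the 9 sgNeo tumours. Both genes were chosen by this contrast and the tumours come from 3 codes a group, so nothing is read from this separation. The share of all genes so separated is not given here. The means were 76.8 ± 17.9 and 199 ± 35.6 CPM, and the log2 fold change was 1.37 (SE 0.19).

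**Figure D1:**
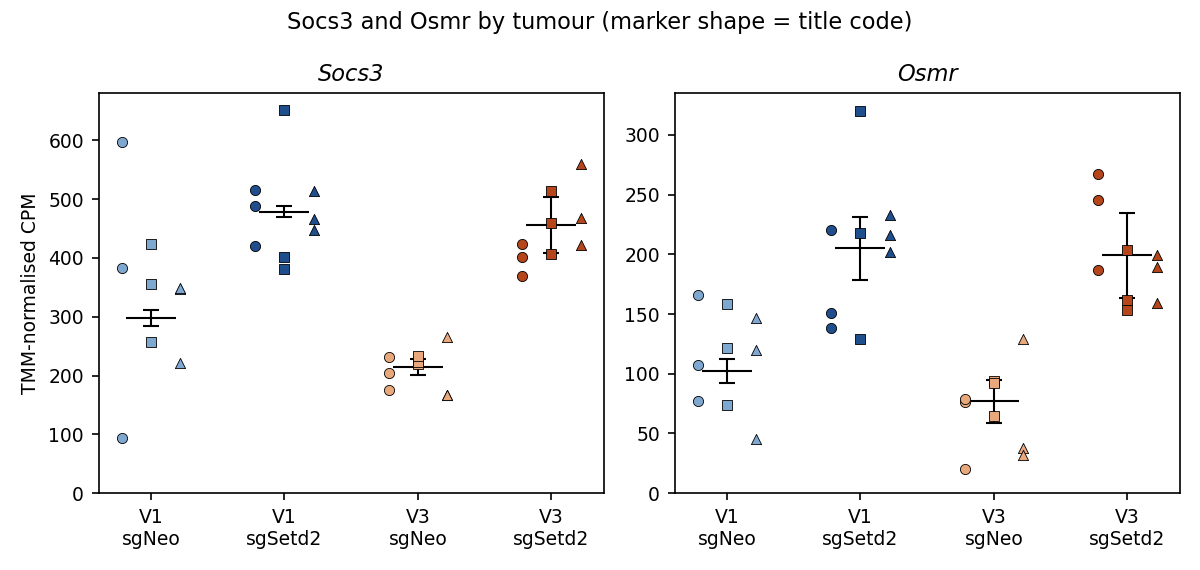
Socs3 and Osmr in TMM-normalised CPM (linear axis from 0) for each of the 36 tumours, by group, where V1 and V3 are the variants, the marker shape is the title code within a group, and bars are the mean ± SD over 3 codes. In Variant 3 the sgSetd2 tumours (Socs3 369 to 560, Osmr 153 to 268 CPM) do not overlap the sgNeo tumours, and in Variant 1 they do. Both genes were chosen by the Variant 3 contrast.

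Of the 10 genes, 2 were called for sgSetd2 against sgNeo in Variant 1, Socs3 and Osmr, both higher, where 1.42% of all genes were called (0.7% higher). The codes did not overlap for 3 of the 10 (Socs3, Osmr and Jak1, all higher), where this held for 24% of all genes tested. The median log2 fold change was 0.33 over the 10 and -0.01 over all genes. In Variant 3 the same 2 genes were past the threshold and higher, where 1.49% of all genes were called, and codes did not overlap for 3 of 10 (19% of all genes). That contrast was used to choose the genes, so nothing is read from these counts. The median was 0.46 over the 10 against 0.02 over all genes. Averaged over variants, Socs3 (0.89, SE 0.08) and Osmr (1.19, SE 0.14) were past the threshold, with 7.35% of all genes called.

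**Figure D2:**
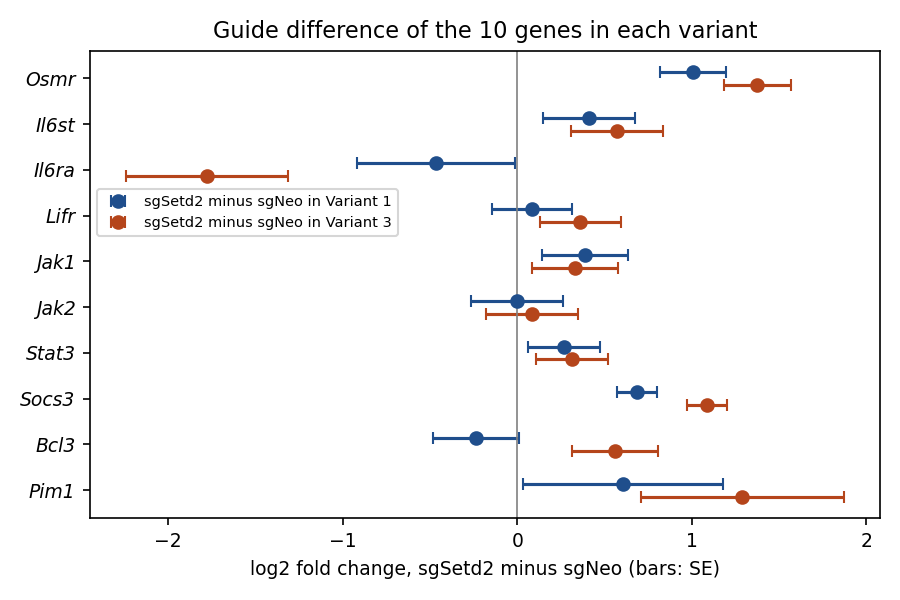
Log2 fold change of sgSetd2 minus sgNeo for the 10 genes in Variant 1 and Variant 3 (points, with bars of 1 SE from the edgeR fit). Osmr and Socs3 lie above 0 in both variants, at 1.01 and 0.69 in Variant 1 and at 1.37 and 1.09 in Variant 3, and Il6ra lies below 0, at -0.47 and -1.78.

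Cell cycle gene levels differed among the Variant 1 tumours. The 16 cell cycle genes summed to between 132 and 837 CPM in the Variant 1 sgNeo tumours and to between 140 and 251 CPM in the Variant 1 sgSetd2 tumours. The 3 sgNeo tumours at the top of that range, 1 from each code, held 94.2, 257 and 221 CPM of Socs3 and 107, 73.9 and 45.0 CPM of Osmr. Those are the 3 lowest Socs3 values of the group. The 5 tumours of the series whose mean log2-CPM over these genes was above 5 were left out as an alternative chosen after seeing the data. The Variant 1 log2 fold change of Socs3 was then 0.20 (edgeR adjusted p = 0.683) and that of Osmr 0.65 (adjusted p = 0.175), while in Variant 3 they were 1.00 and 1.16. With all tumours kept and the cell cycle list as a covariate, the Variant 1 value was 0.31 for Socs3 and 1.00 for Osmr, neither of them called (edgeR adjusted p = 1.00 for both), and the Variant 3 values were 1.03 and 1.37. The Socs3 value in Variant 1 was thus smaller in both fits, while that of Osmr was smaller in the first alone.

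The Variant 1 calls also depended on single tumours and codes. Tumour 1 of CE467 had the lowest Socs3 and the highest fibroblast marker sum (406 CPM) of the series. It also had the lowest sum of epithelial and alveolar type 2 cell markers (30946 CPM), and was among the 5 tumours with high cell cycle genes. Without that tumour, the Socs3 log2 fold change was 0.38 (edgeR adjusted p = 0.378). Without the 6 tumours whose fibroblast markers summed to over 50 CPM it was 0.33 (adjusted p = 0.377), and that of Osmr 0.98 (adjusted p = 0.0314). The Socs3 call was also lost without tumour 1 of CE468, tumour 2 of CE472 or tumour 3 of CE433, and without any code of Variant 1 except CE479, with values of 0.57 to 0.71. The Osmr call was lost without any of the 6 codes of Variant 1 and without any of 7 single tumours (tumour 1 of CE428, CE467 or CE468, tumour 2 of CE472, tumour 3 of CE428, CE433 or CE475), with values of 0.84 to 1.11. CE428 and CE433 are Variant 3 codes, which enter this contrast through the shared spread, scaling and adjustment. Without tumour 3 of CE433 the values were 0.69 for Socs3 and 1.01 for Osmr. Over all genes, the count called in Variant 1 was 284, and fell as low as 16 without a code and 17 without a tumour.

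**Figure D3:**
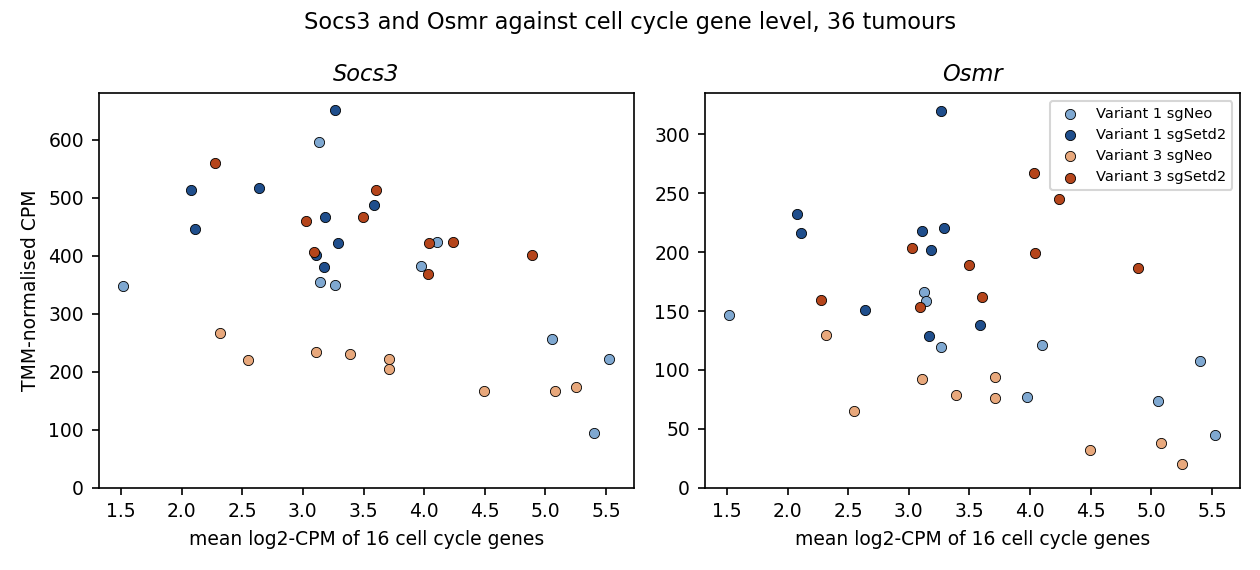
Socs3 and Osmr (TMM-normalised CPM, linear axis from 0) against the mean log2-CPM of 16 cell cycle genes, 1 point per tumour, coloured by group. The tumours to the right of 5 are 5 sgNeo tumours, with 94.2 to 257 CPM of Socs3 and 20.1 to 107 CPM of Osmr.

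Across the 36 tumours, the correlation of log2-CPM with the cell cycle list was -0.59 for Socs3 and -0.58 for Osmr after group means were subtracted. Other lists gave values of similar size, 0.57 for Osmr with the alveolar type 1 cell markers and 0.50 for Socs3 with the epithelial and alveolar type 2 cell markers. The points share library preparation and the 3 tumours of a code, so these are descriptions only. Other lists moved with the guide as well. Club and ciliated cell markers summed to 16.8 to 213 CPM in Variant 1 sgNeo and 166 to 851 CPM in Variant 1 sgSetd2, and to 10.4 to 27.1 against 49.7 to 354 CPM in Variant 3. The neutrophil list summed to 4.09 to 26.3 CPM in Variant 3 sgSetd2 and to at most 4.19 CPM in Variant 3 sgNeo. In Variant 1 it reached 1.67 CPM with sgNeo and 10.3 CPM with sgSetd2, the latter in tumour 2 of CE479. Most of the Variant 3 sgSetd2 sum was Cxcr2. S100a9, Csf3r, Ly6g and Mpo had 4, 1, 16 and 17 counts in all 36 libraries together. The remaining gene of the list, S100a8, passed the filter on low counts and, like Cxcr2, was higher with sgSetd2 by estimate in both variants. Its levels are not reported here, and which cells these counts came from was not tested. The part of the club cell genes in the Socs3 and Osmr values was not tested.

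The other receptor chains were less clear. Il6st, the gp130 gene (chromosome 13, 112464070 to 112510086, plus strand), was at 91.3, 53.4 and 66.2 CPM in the Variant 1 sgNeo codes and at 89.9, 95.2 and 95.3 with sgSetd2. Its Variant 3 codes were at 32.7, 59.5 and 37.7 with sgNeo and at 72.3, 75.7 and 44.9 with sgSetd2. The codes overlapped in both variants. The log2 fold change was 0.41 in Variant 1 (95% interval -0.16 to 0.99, edgeR adjusted p = 0.496) and 0.57 in Variant 3 (SE 0.26). An increase about as large as that of Socs3 in Variant 1 lies within the interval.

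Il6ra, the chain that binds IL-6 itself (chromosome 3, 89864059 to 89913196, minus strand), was scarce in every group, and its reads cannot be told apart from those of the antisense gene Gm42809 in a library that does not mark strand. Its codes were at 3.55, 1.96 and 5.77 CPM in Variant 1 sgNeo and at 1.87, 2.72 and 3.58 in Variant 1 sgSetd2, a log2 fold change of -0.47 (95% interval -1.46 to 0.53, edgeR adjusted p = 0.698). In Variant 3 they were at 4.26, 5.34 and 4.53 CPM with sgNeo and at 1.14, 2.10 and 0.880 with sgSetd2, a log2 fold change of -1.78 (SE 0.46). All Variant 3 sgSetd2 codes lay below all sgNeo codes, while the tumours, 0.249 to 2.96 against 2.94 to 9.18 CPM, overlapped by 1 value, the 2.96 CPM of tumour 3 of CE454. This was the largest fold among the 10 genes in Variant 3 by size, and it was not past the threshold in the edgeR fit, although it was in DESeq2 on the sums and in limma voom on tumours. Tumour 2 of CE479 had 0 Il6ra counts of 32.2 M, which allows up to 0.0871 CPM (3 counts, counting error only).

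Lifr, the receptor chain for LIF (chromosome 15, 7090614 to 7197489, plus strand), varied less between groups than any other of the 10 genes: groups accounted for 3.17% of its variance over tumours, against 58.8% for Socs3 and 61.6% for Osmr. The group means were 41.3 ± 4.35, 43.7 ± 4.13, 36.9 ± 6.03 and 47.4 ± 17.5 CPM. Its log2 fold change with sgSetd2 was 0.08 in Variant 1 (95% interval -0.42 to 0.59, edgeR adjusted p = 0.914) and 0.36 in Variant 3 (SE 0.23). The wide last group came from codes at 46.1, 65.5 and 30.6 CPM, with a lowest tumour of 10.9 and a highest of 74.5. Per kb, the median ratio of Osmr to Il6st over the tumours of a group was 1.5 and 1.9 in Variant 1, without and with sgSetd2, and 1.4 and 2.7 in Variant 3. The median ratio of Il6ra to Il6st was 0.0501 and 0.0378 in Variant 1, and 0.127 and 0.0205 in Variant 3. For the ratio of Lifr to Il6st the medians were 0.462 and 0.463 in Variant 1 and 0.943 and 0.828 in Variant 3. The Osmr ratios of the tumours overlapped between guides in both variants. In Variant 3 the Il6ra ratios did not (0.0924 to 0.245 with sgNeo, 0.00462 to 0.0551 with sgSetd2). The genes were chosen by that contrast, the tumours come from 3 codes a group, and Il6ra counts were low. The share of such ratios over all genes is not given here, so nothing is read from this separation.

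Stat3, Jak1 and Jak2 encode the signal transducers. Stat3 (chromosome 11, 100885098 to 100939540, minus strand, partly overlapping Stat5a on the other strand) was at 333, 253 and 413 CPM in the Variant 1 sgNeo codes and at 409, 359 and 434 with sgSetd2, and at 286, 326 and 240 against 391, 405 and 264 in Variant 3. The codes overlapped in both variants. The log2 fold change was 0.27 in Variant 1 (95% interval -0.19 to 0.72, edgeR adjusted p = 0.600) and 0.31 in Variant 3 (SE 0.21). These values are transcript levels and say nothing of STAT3 phosphorylation.

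Jak1 (chromosome 4, 101152367 to 101265282, minus strand, partly overlapping Raver2) was at 143, 105 and 143 CPM in the Variant 1 sgNeo codes and at 181, 172 and 159 with sgSetd2. The codes did not overlap, yet the log2 fold change of 0.39 was not called (95% interval -0.15 to 0.92, edgeR adjusted p = 0.488). In Variant 3 it was at 114, 129 and 74.1 with sgNeo and at 170, 139 and 89.4 with sgSetd2 (0.33, SE 0.24). Jak2 (chromosome 19, 29251828 to 29313080, plus strand) was at 69.1 ± 15.7 and 69.0 ± 7.60 CPM in Variant 1 and at 41.1 ± 15.8 and 43.5 ± 8.69 CPM in Variant 3. Its log2 fold change with sgSetd2 was 0.00 in Variant 1 (95% interval -0.58 to 0.58, edgeR adjusted p = 0.998) and 0.08 in Variant 3 (SE 0.26).

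Bcl3 and Pim1, like Socs3, are genes that STAT3 can induce. Bcl3 (chromosome 7, 19808462 to 19822770, minus strand) encodes an IκB-like cofactor of NF-κB, and overlaps the antisense gene Gm16175. Its codes were at 46.1, 40.7 and 27.8 CPM in Variant 1 sgNeo and at 32.0, 38.0 and 27.3 in Variant 1 sgSetd2, so that the log2 fold change was -0.24 (95% interval -0.77 to 0.30, edgeR adjusted p = 0.721). In Variant 3 the sgNeo codes were close together, at 24.1, 25.0 and 26.3 CPM, while the sgSetd2 codes were at 42.0, 23.6 and 45.4 (0.56, SE 0.25). The codes of the 2 guides thus overlapped in Variant 3, and so did the tumours. The 3 tumours of CE454, the code at 23.6, were at 22.4, 25.4 and 19.9 CPM. The 6 other sgSetd2 tumours of Variant 3 were at 33.6 to 47.8 CPM. CE454 was set apart after its values were seen, so nothing is read from this split.

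Pim1 encodes a serine/threonine kinase that promotes survival (chromosome 17, 29490753 to 29496112, plus strand, overlapping the antisense gene Gm26885). It was low, at 4.88 ± 2.38 and 7.42 ± 4.43 CPM in Variant 1 and at 4.49 ± 1.33 and 11 ± 8.24 CPM in Variant 3. A few tumours were far above the rest: 17.9 CPM in tumour 4 of CE468, 29.5 in tumour 2 of CE479, and 21, 15.1 and 28.8 in the 3 tumours of CE456. The log2 fold change was 0.60 in Variant 1 (95% interval -0.65 to 1.86, edgeR adjusted p = 0.689) and 1.29 in Variant 3 (SE 0.58). Among the 3 feedback genes, Socs3 was higher with sgSetd2 in all codes of both variants. Bcl3 and Pim1 differed more between the codes of a group (45.5% and 48.6% of their variance) than Socs3 did (2.27%). Codes did not overlap for 24% of all genes in Variant 1 and 19% in Variant 3. Socs3 was chosen by its Variant 3 values, so nothing is read from its difference from the other feedback genes.

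**Figure D4:**
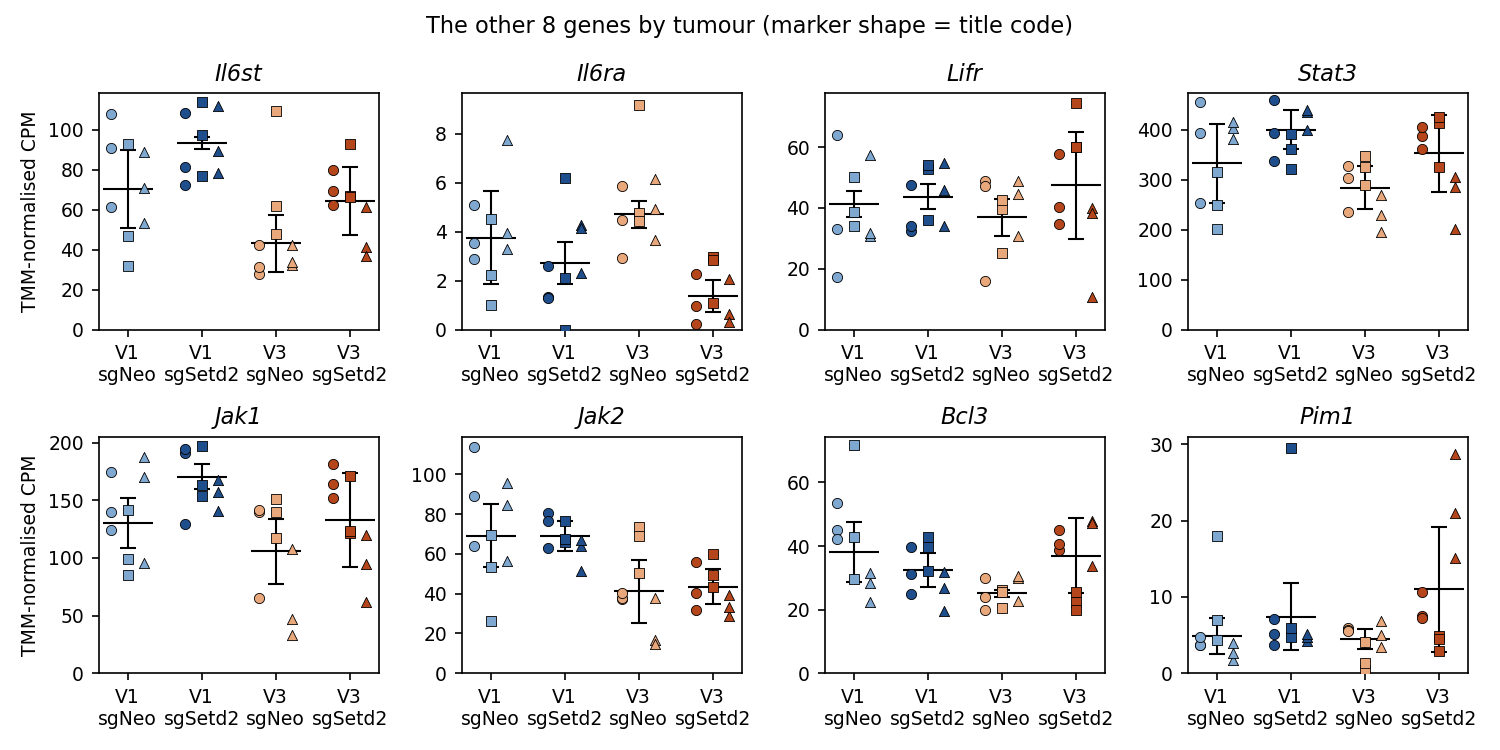
The other 8 genes in TMM-normalised CPM (linear axes from 0) by tumour and group, with marker shape for the title code and bars for the mean ± SD over 3 codes. Il6ra is below 10 CPM in every tumour, and the 3 Pim1 values of code CE456 (triangles, 15.1 to 28.8 CPM) stand above the rest of Variant 3 sgSetd2.

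Between variants, none of the 10 genes was called. These contrasts share the Variant 3 codes with the comparison by which the genes were chosen, so low values with sgNeo or high values with sgSetd2 in Variant 3 are not independent of that choice. With the control guide, 9 of 10 were lower in Variant 3 than in Variant 1 by estimate, with a median log2 difference of -0.36 against -0.02 over all genes. In this contrast edgeR called 0.005% of all genes, while of the 10 genes DESeq2 called 1, Socs3, and limma voom none. The unadjusted edgeR p was below 0.05 for 4 of the 10. Such values were common over all genes: Osmr, at an unadjusted edgeR p of 0.0513, ranked 2120 by p among 20009. The log2 differences of those 4 were -0.75 for Jak2 (SE 0.27, edgeR adjusted p = 0.399), -0.70 for Il6st (SE 0.26, adjusted p = 0.407), -0.60 for Bcl3 (SE 0.25, adjusted p = 0.430) and -0.47 for Socs3 (SE 0.11, adjusted p = 0.277). The Variant 3 codes of Socs3, Osmr and Bcl3 were all below the Variant 1 codes, as was so for 8.21% of all genes. Osmr differed by -0.41 (95% interval -0.82 to 0.00, adjusted p = 0.484).

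With sgSetd2, Socs3 and Osmr were close to equal in the 2 variants, with log2 differences of -0.07 (95% interval -0.31 to 0.18, edgeR adjusted p = 0.881) and -0.04 (95% interval -0.45 to 0.37, adjusted p = 0.965). In this contrast 0.13% of all genes were called and none of the 10. The unadjusted p was below 0.05 for 1 of them, Jak2 (-0.66, SE 0.27, adjusted p = 0.435), which ranked 1328 by p among all 20009 genes. Neither DESeq2 nor limma voom called any of the 10. Il6st and Jak2 had all Variant 3 codes below all Variant 1 codes, as 8.06% of all genes did. The test of whether the guide difference itself changed with the variant called 0 of the 20009 genes, or 0%. For Socs3 this interaction was 0.40 (95% interval 0.05 to 0.75, edgeR adjusted p = 0.794), for Bcl3 0.79 (0.03 to 1.55, adjusted p = 0.816), for Il6ra -1.31 (adjusted p = 0.824) and for Osmr 0.37 (adjusted p = 0.899). Unadjusted p was below 0.05 for the first 2 alone, of which Bcl3 ranked 1043 by p among the 20009 genes. DESeq2 and limma voom called none of the 10. This test is not independent of how the genes were chosen.

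Levels of the 10 genes varied together in part. After group means were subtracted, log2-CPM of Jak1 and Jak2 correlated at 0.76 over the 36 tumours, Stat3 and Jak1 at 0.73, Il6st and Jak2 at 0.69, and Stat3 and Jak2 at 0.67. Pim1 ran against these genes, at -0.65 with Jak2, -0.64 with Stat3, -0.62 with Il6st and -0.53 with Jak1, and with Bcl3, at 0.57. Socs3 correlated with Osmr at 0.40 (0.76 before group means were removed) and with Stat3 at only 0.21. The tumours share library preparation and codes, and these values carry no test.

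The genes most like Socs3 after group means were removed, among 9868 genes with a mean of at least 5 CPM, were Myh13 (0.81), Slc37a1 (0.80), Urah (0.79), Elf3 (0.78) and Junb (0.78). Without removing group means, Elf3, an epithelial transcription factor gene, stood at 0.90 with Socs3 and Myh13 at 0.67. For Osmr the nearest were Mrc2 (0.85), Retnla (0.84), Clip4 (0.83), Nt5e (0.82) and Man1c1 (0.82), of which Retnla stood at 0.91 and Mrc2 at 0.90 with group means left in.

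The ligands of these receptors were measured in the same libraries, and edgeR called none of the 9 tested in either variant. DESeq2 called 1 lower in Variant 3 and limma voom none. The unadjusted edgeR p was below 0.05 for 1 in Variant 1 and 2 in Variant 3. The share of all genes below 0.05 is not given here, so nothing is read from these counts or the like ones below. Lif, the ligand of the Lifr chain, was at 20.8 ± 3.72, 22.2 ± 11.9, 26 ± 4.10 and 16.4 ± 6.50 CPM, and Ctf1 at 11.7, 13.3, 11.5 and 8.96 CPM. Il6 was at 17.9 ± 11.1, 8.57 ± 2.34, 3.25 ± 0.686 and 7.59 ± 8.09 CPM. Clcf1, the cardiotrophin-like cytokine, fell by 0.53 on the log2 scale averaged over variants (edgeR adjusted p = 0.0354), the single ligand called in that contrast. Osm, the ligand of the oncostatin M receptor, had 28 counts in all, every one of them from tumour 1 of CE468 (0.385 CPM), and was too low to test, as was Il31. That tumour also had the highest macrophage marker sum of the series, 40.5 CPM. Which cells the Osm counts came from was not tested.

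Of the other receptor chains, Il11ra1 was at 16.6, 19.0, 15.1 and 19.3 CPM and Cntfr at or below 0.417 CPM on average, and neither was called. Among 8 further JAK and STAT genes, none was called in either variant by edgeR (unadjusted p below 0.05 for 1 in each), while DESeq2 and limma voom each called Stat2 higher in Variant 3. Averaged over variants Stat2, a transcription factor gene of interferon signalling, was higher with sgSetd2 (log2 fold change 0.77, edgeR adjusted p = 0.0479), from 23.3 and 23.9 to 34.7 and 46.6 CPM. Stat6 was at 119, 149, 118 and 133 CPM, Tyk2 at 26.4, 26, 36.7 and 32.4, Jak3 at 28, 23.1, 23.1 and 24.2, and Stat5b at 22.9, 26.7, 24.3 and 23.

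None of the 17 other inhibitors of the pathway was called in any of the 6 contrasts by edgeR, with 1 unadjusted p below 0.05 in each, and none by limma voom. DESeq2 called Ptpn1 higher in the average over variants. Socs2, the most abundant of them, was at 189 ± 65.2, 275 ± 75.3, 273 ± 14.1 and 284 ± 104 CPM. Its log2 fold change was 0.54 in Variant 1 (edgeR adjusted p = 0.433) and 0.06 in Variant 3 (adjusted p = 0.960). Ptpn2 was at 119, 122, 104 and 99.5 CPM, Pias1 at 113, 117, 103 and 104, and Pias2 at 75.5, 73.2, 70.8 and 64.9. Socs1, the inhibitor closest to Socs3 in mode of action, was at 4.37, 3.79, 5.6 and 4.4 CPM.

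A list of 38 STAT3 target genes, 35 of them tested, held genes of the acute-phase response, survival and transcription. In Variant 1, 5 rose with sgSetd2 and none fell: Fga, Fgg, Steap4, Cp and Hp. In Variant 3, 6 rose and none fell: Fga, Fgg, Steap4, Cp, C3 and Il4ra. Over all genes, 1.42% were called in Variant 1 and 1.49% in Variant 3. DESeq2 called 10 higher and 2 lower in Variant 1 and 10 higher in Variant 3, and limma voom 5 higher in Variant 1 and 8 higher and 2 lower in Variant 3, with Myc among the lower. The list was made with earlier results on these tumours known, those of the fibrinogen genes and Steap4 among them. The counts, medians and directions of the list therefore add no independent support. Cp, the gene of the copper-carrying ferroxidase ceruloplasmin, rose from 119.8 ± 27.1 to 347 ± 75.6 CPM in Variant 1 (log2 fold change 1.54, edgeR adjusted p = 0.0115) and from 130.0 ± 21.2 to 299.8 ± 34.7 CPM in Variant 3 (1.20, adjusted p = 0.0188). Hp, the gene of the haemoglobin scavenger haptoglobin, rose from 309 ± 77.4 to 666 ± 126 CPM in Variant 1 (1.11, adjusted p = 0.0362), and was at 358 ± 53.3 and 337 ± 63.3 CPM in Variant 3 (-0.09, adjusted p = 0.910). C3, complement component 3, rose from 109.6 ± 4.14 to 208 ± 58.3 CPM in Variant 3 (0.93, adjusted p = 0.0377), and Il4ra, the IL-4 receptor chain gene, from 186 ± 29.1 to 374 ± 82.0 CPM (1.01, adjusted p = 0.0462).

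The median log2 fold change of the 35 genes was 0.23 in Variant 1 and 0.41 in Variant 3, against -0.01 and 0.02 over all genes. Averaged over variants, where 7.35% of all genes were called, edgeR called 11 higher and none lower, DESeq2 13 higher and 3 lower, and limma voom 11 higher and 2 lower, with Myc lower in both of the latter. Those that rose in edgeR included the iron-binding Lcn2 (0.68, edgeR adjusted p = 0.0192), Lrg1 (1.03, adjusted p = 0.00700), Fgl1 (1.88, adjusted p = 0.0162), Itih4 (0.81, adjusted p = 0.0326) and the repressor gene Bcl6 (0.70, adjusted p = 0.0483). Itih4 was also lower in Variant 3 than in Variant 1 with sgSetd2 (-2.36, adjusted p = 0.0115). Several classical targets were not called by edgeR: Fos was at 3675, 3894, 2909 and 3227 CPM, Junb at 826, 996, 792 and 977, Icam1 at 525, 509, 479 and 615, and Vegfa at 534, 560, 384 and 526. Myc was at 47.5, 26.1, 36.2 and 9.72 CPM with log2 fold changes of -0.87 and -1.89 (adjusted p = 0.542 and 0.166).

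**Figure D5:**
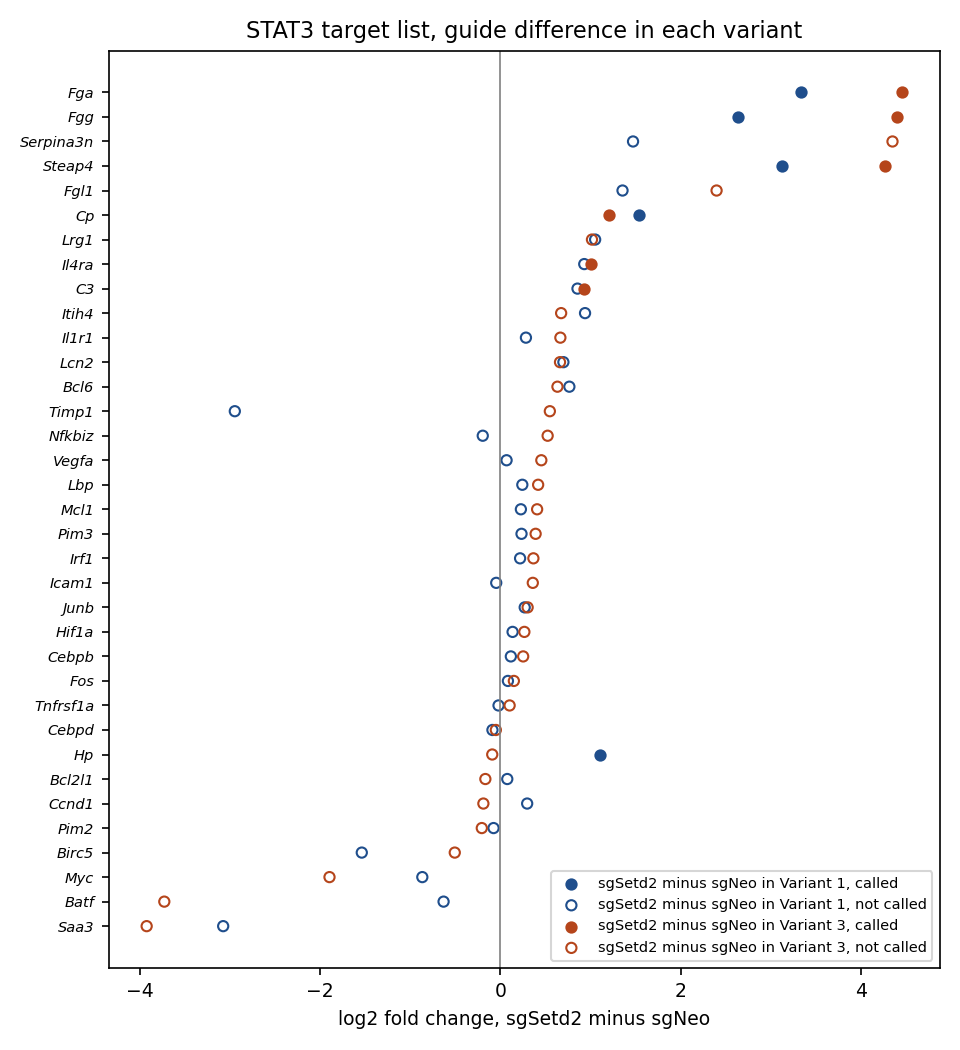
Log2 fold change of sgSetd2 minus sgNeo for the 35 tested genes of the STAT3 target list, in Variant 1 and Variant 3, sorted by Variant 3, with filled points for genes called by edgeR. The filled points all lie above 0, 5 of them in Variant 1 and 6 in Variant 3.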

How the data were processed

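The values are raw gene counts, which the authors deposited in a table with a column for each of the 36 tumours. The submitters' processing notes name STAR 2.5.3a, the aligner, beside R 4.2 and DESeq2 1.38.3. Which counter, strand setting, build and annotation were used is not given in the sources used here. Per the labels' protocols, a PicoPure kit gave the RNA and a SMART-Seq mRNA kit the libraries. The latter does not mark strand. Of the 49585 IDs, 49326 took symbols, exon lengths and coordinates from GENCODE M21 (GRCm38), version digits set aside. No pair of libraries was identical.

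Counts were summed within each code. A single model of the 12 sums was fitted (edgeR 4.0.16, R 4.3.3; filterByExpr, TMM, glmQLFit robust, glmQLFTest), and 6 contrasts were taken. SE is the size of the log2 fold change over the root of F, and 95% intervals use the fit's degrees of freedom. The fit was tested on simulated data. Levels per kb divide by the union of exons. No sequencing batch is given in the labels, and none could be tested. Male codes (Ddx3y above 50 CPM) numbered 0, 1, 2 and 1 of 3 in the 4 groups.

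The 10 genes, the pathway lists and the marker lists were chosen with earlier results of these data known. Named genes are all 10, the genes of each list that were called and up to 4 of its most abundant others, Setd2, and the 5 genes nearest to Socs3 and to Osmr by correlation of log2-CPM (prior count 2). Osm, Il31, Ptpn1, Socs1, Myc, the marker genes and the target genes named for a motif fall outside that rule and were chosen after their values were seen. Values of 1 ligand that the rule names are not reported here. Alternatives were RLE scaling, no filter, DESeq2 1.42.0, limma 3.58.1 voom with codes as random blocks, equal weight of tumours, 3 covariates (macrophage list, cell cycle list, sex), and fits without 1 code or 1 tumour. Leaving out tumours with fibroblast markers or high cell cycle genes was added after seeing the data.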

Additional observations from a re-analysis of the deposited data

Results flagged for a closer look

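In groups of 9 tumours, the highest or lowest value was set against the rest by Dixon's criterion for each of the 10 genes in each of the 4 groups. Of 40 such sets, 4 had an outlying tumour, and chance gives about 1 in 20. Socs3 in Variant 1 sgSetd2 stood apart in tumour 2 of CE479, at 652 CPM with the next tumour at 516. Pim1 stood apart in the same tumour, at 29.5 CPM with the next at 7.05. That tumour also had the highest Osmr value of the series, 320 CPM, and no Il6ra count. Pim1 in Variant 1 sgNeo stood apart in tumour 4 of CE468, at 17.9 CPM with the next at 6.91. Il6st in Variant 3 sgNeo stood apart in tumour 1 of CE429, at 109 CPM with the next at 61.7.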

How the results depend on the processing

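In Variant 1, Socs3 and Osmr kept their direction for sgSetd2 against sgNeo in all 58 alternative fits, and Socs3 was called in 44 of them and Osmr in 39. The number of the 10 genes called in Variant 1, 2 in the reported fit, was 0 with limma voom on tumours, with a macrophage or a cell cycle covariate and without the proliferating tumours, and 1 with equal weight of tumours, with sex as covariate and without the tumours with fibroblast markers. It ran from 0 to 2 when a code or a tumour was left out. Some calls were lost with little change in value: Osmr (1.01) was 0.93 with voom, 0.99 with the macrophage and 1.00 with the cell cycle covariate, 0.90 with equal weight and 0.94 with sex, and Socs3 (0.69) was 0.63 with voom and 0.70 with the macrophage covariate. Socs3 was smaller with the cell cycle covariate (0.31) and without the tumours with fibroblast markers (0.33), and without the proliferating tumours both were smaller (0.20 and 0.65). Averaged over variants it was 4 with voom, 0 with the cell cycle covariate and 2 to 3 when a code or tumour was left out. Between variants with sgNeo it was 1 with DESeq2. The cause was not tested. A covariate takes 1 of the few degrees of freedom, and with the cell cycle covariate 16 genes in all were called in the average. Over all genes, the count called in Variant 1 (284) ran from 0 to 1500 and in Variant 3 (299) from 78 to 1337 over these fits.

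The log2 values that changed sign were none of them called. For sgSetd2 in Variant 1, Jak2 (0.00) was 0.014 with RLE scaling, 0.0023 without a filter, 0.014 with DESeq2, 0.030 with voom and 0.0015 with equal weight. Bcl3 was 0.32 with the cell cycle covariate. Without the tumours with fibroblast markers, Lifr was -0.072 and Pim1 -0.037 in Variant 1, Jak2 was -0.11 in Variant 3 and -0.096 averaged, and the interactions of Il6st, Stat3 and Jak2 were -0.090, -0.0098 and -0.029. Averaged Jak2 was -0.16 with the cell cycle covariate and -0.095 without the proliferating tumours, where the interaction of Lifr was -0.052. Between variants with sgNeo, Il6ra was -0.051 with the cell cycle covariate and -0.035 without the proliferating tumours, Lifr was 0.16 without them, and Pim1 was 0.21, 0.19 and 0.27 with the macrophage, cell cycle and sex covariates. With sgSetd2, Socs3 was 0.092 and Bcl3 -0.067 with the cell cycle covariate, and Lifr -0.039 with voom and -0.040 with equal weight. The interaction of Jak1 was 0.095, 0.10 and 0.040 with voom, equal weight and the sex covariate.

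Leaving out a code or a tumour moved some values across 0. For Jak2 the range was -0.18 to 0.14 in Variant 1, -0.14 to 0.42 in Variant 3, -0.074 to 0.21 averaged and -0.14 to 0.43 for the interaction. For Lifr it was -0.030 to 0.22 in Variant 1, -0.19 to 0.36 between variants with sgSetd2 and -0.026 to 0.52 for the interaction. For Pim1 it was -0.50 to 0.35 and -0.22 to 1.17 between variants with sgNeo and sgSetd2, and -0.096 to 1.28 for the interaction. Between variants with sgSetd2 it was -0.12 to 0.019 for Socs3 and -0.20 to 0.053 for Osmr. The interactions ran from -0.079 to 0.46 for Il6st, -0.27 to 0.16 for Jak1 and -0.14 to 0.22 for Stat3. No paired analysis was possible because the labels give no replicate number shared between groups. Il6ra had 153 to 1137 counts a code and Pim1 384 to 4193, and with 3 codes a group differences smaller than the intervals given are not detectable.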

Other observations

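Tumour 4 of CE468, with the high Pim1 value, also had the highest Bcl3 value of the 36 tumours, 71.7 CPM, and the lowest Il6st and Jak2 values of Variant 1 sgNeo, 31.8 and 26.4 CPM. Code CE456 combined high Pim1 (20.2 CPM over the code) and Bcl3 (45.4 CPM) with the lowest Stat3, Jak1 and Il6st values among the Variant 3 sgSetd2 codes (264, 89.4 and 44.9 CPM). The TTCNNNGAA motif stood in 9 of the 38 RefSeq promoter windows found for 31 of the 38 STAT3 target genes, or 23.7%, against 8.30% of all windows, in Bcl6, Fga, Fgb, Icam1, Irf1, Itih4, Steap4 and Tnfrsf1a. This is a count over genes partly listed for known STAT3 sites and carries no test.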
